A study of Rattus norvegicus with 218 samples.

Results

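Npr2 and Npr3 encode a pair of the 3 receptors for natriuretic peptides, and their transcripts were followed in rat neurons captured from the vagal dorsal motor nucleus (DMV), which sends vagal motor fibers to the heart and gut. The rows with these gene symbols were taken from a table of 168 RT-qPCR assays for 165 genes, so the members are 2 of 165 genes. The pair was chosen by measured values of these same animals, since the study itself singled both genes out after remote ischemic preconditioning (RIPC). The study had looked at the pools and also at the single neurons in doing so. Levels and shares of the pair that compare treatments within pools or within single neurons are therefore given as a description, with no test. In the rat RefSeq annotation (GRCr8), Npr2 lies on chromosome 5 from 62678197 to 62697360 and Npr3 on chromosome 2 from 62592557 to 62660497. The exons that the assays amplify are not known here.

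Natriuretic peptides are hormones of the heart and local signals of the brain, and they are best known for lowering blood volume and blood pressure. Npr1 and Npr2 are receptors with a guanylyl cyclase of their own, so that a bound peptide raises cyclic GMP inside the cell. Npr1 answers mainly to the atrial and B-type peptides (Nppa and Nppb) and Npr2 mainly to the C-type peptide (Nppc), while Npr3, the clearance receptor, has no cyclase, binds all of these peptides and takes them up for degradation.

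All animals were adult male Sprague Dawley rats. Naive rats had neither operation, sham rats were anesthetized with ketamine and xylazine and had the femoral vessels exposed but not tied, and RIPC rats had the same anesthesia with the vessels of both legs tied and released. Brainstems of operated rats were taken 2.5 h after reperfusion or, per the labels, at the same time point after sham surgery. Neurons stained for NeuN were captured by laser from the left or right DMV, singly or in pools. Each assay gave a threshold cycle (Ct), and an earlier cycle means more transcript. An assay with no Ct was below the limit of detection.

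Of 213 samples from 10 rats, 186 had a value in at least 25% of the assays and were kept: 98 single neurons and 88 pools. They came from 3 naive (81 samples), 4 sham (62) and 3 RIPC animals (43). Naive replicate 3 gave 54 of the 57 naive single neurons, and naive replicate 1 gave pools only. The animal was the replicate, and p-values measure the spread between animals. The number of assays with a value, which stands for depth, ranged from 43 to 149, with a median of 69 in single neurons and 96 in pools. Pools of 2 animals had a low yield, with a median of 48 assays in the 3 pools of naive replicate 1 and 56.5 in the 8 of RIPC replicate 1, against 87 to 105 in the other animals. The neuronal gene Camk2a had a value in 95.2% of the samples and Chat, the gene of the enzyme that makes acetylcholine, in 75.3%. Gfap, an astrocyte marker, had a value in 79.03% of the samples. The study's methods state that caps were inspected after capture and that those holding non-neuronal cells were left out. Whether RNA of neighboring glia was captured with the neurons was not tested.

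Taking all treatments together, Npr2 was detected more often, earlier and more evenly than Npr3. The order of detection turned in RIPC samples, where Npr2 had 21 values and Npr3 had 25. Npr2 had a Ct in 113 of 186 samples (60.8%, Wilson 95% interval 53.6% to 67.5%). Its Ct ran from 10.9 to 23.99, with a median of 14.8 and an interquartile range of 2.06 cycles. Npr3 had a Ct in 80 samples (43.0%, 36.1% to 50.2%). Its Ct ran from 13.1 to 26.3, with a median of 19.7 and an interquartile range of 5.02 cycles. These intervals cover counting error only, since samples of 1 animal are not independent. The efficiency of the assays was not available, so a Ct difference between the pair is not a ratio of transcripts.

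Late values separated the pair further. A Ct above 20 was found for 2 of the 113 Npr2 values (1.77%, 0.487% to 6.22%) and for 37 of the 80 Npr3 values (46.3%, 35.7% to 57.1%), against 5.01% of all 16090 values in the table. Among the 137 genes with at least 20 values, Npr3 had the fourth highest share of late values, after Hrh1 (67.9%), Ghsr (52.2%) and Agtr1a (50%). The SD of its Ct, 3.07 cycles, was rank 7 of these genes, while Npr2 was at rank 97 with 1.74 cycles. The median gene had an SD of 1.98 cycles and 2.00% late values. Both late Npr2 values came from single neurons, 1 naive and 1 RIPC. Late Npr3 values were found in 18 of 27 single neurons with a Ct (66.7%, 47.8% to 81.4%) and in 19 of 53 pools (35.8%, 24.3% to 49.3%).

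**Figure D1:**
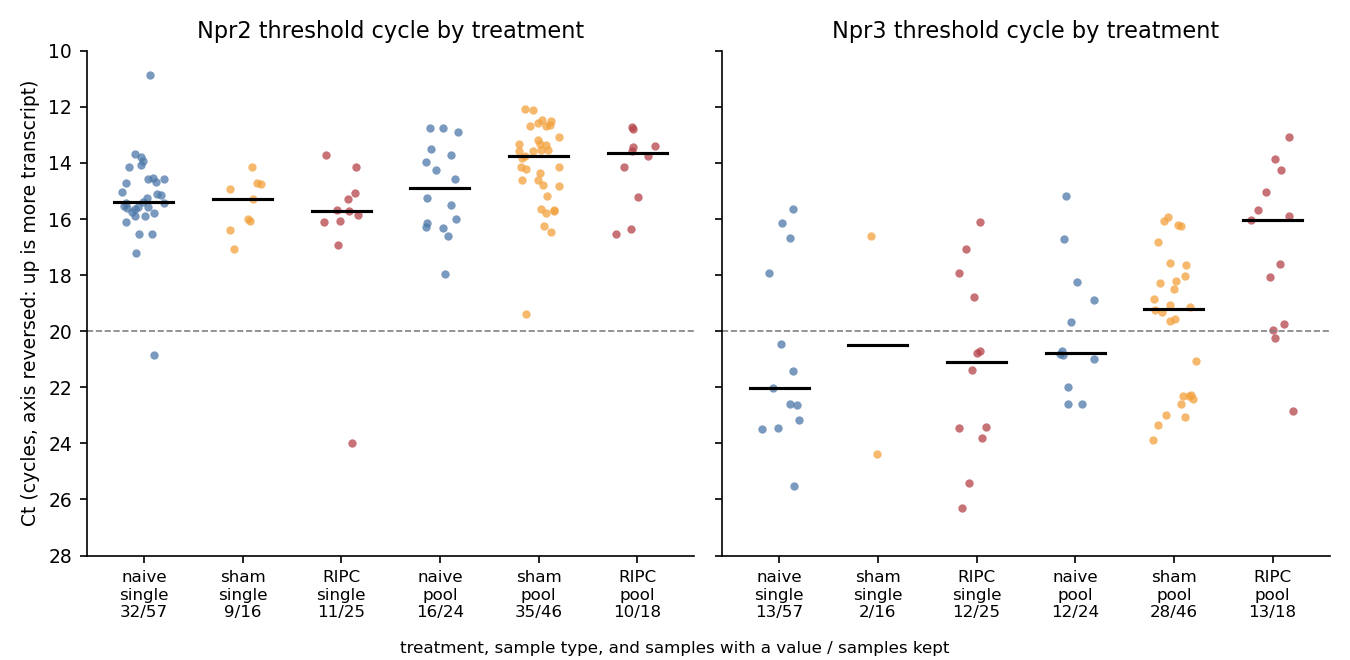
Ct of Npr2 (left) and Npr3 (right) in each sample with a value, by treatment and sample type, with the axis reversed so that more transcript is higher; black lines are medians, the dashed line is Ct 20, and the fractions count samples with a value among those kept. Npr2 clusters around its median of 14.8, while Npr3 spreads from 13.1 to 26.3 and reaches its lowest Ct in RIPC pools.

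Second runs of 5 single neurons show how far one measurement of the pair can be relied on. The pair gave 10 comparisons between a first and a second run. A Ct was present in both runs in 1 of them, in 1 run only in 4, and in neither in 5. The one value seen in both runs was Npr3 in a right-side neuron of RIPC replicate 2, with a Ct of 23.0 in the first run and 14.6 in the second, 8.31 cycles apart. Over the whole table, the same call was made for 60.1% to 73.8% of the assays of these neurons, and the SD of the Ct difference was 1.14 to 3.92 cycles. A single call or Ct of the pair in 1 neuron was thus not well repeated.

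Level is expressed as the median Ct of the 35 most often detected genes in a sample minus the Ct of the gene, in cycles, so that higher is more transcript. Of the pair, Npr2 was nearer to the reference genes, with a median level of -1.47 in single neurons (range -7.71 to 2.43) and -1.60 in pools (-7.45 to 1.94). The median Npr3 level was -7.37 in single neurons (-13.4 to -1.85) and -5.76 in pools (-11.1 to 1.55).

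Both receptors had a value in a larger share of pools than of single neurons, Npr3 by more than Npr2, but neither difference passed the test. Npr3 had a value in 53 of 88 pools (60.2%) and in 27 of 98 single neurons (27.6%), while Npr2 had a value in 61 pools (69.3%) and 52 single neurons (53.1%). Over the 8 animals with at least 2 samples of each type, the Npr3 share was 57.0% ± 29.4 in pools and 35.7% ± 21.5 in single neurons (SD), higher in pools in 6 animals. The difference was 21.3 ± 10.7 percentage points (SE), for which limma gave an adjusted p of 0.163 and exact sign flips a two-sided p of 0.148. For Npr2 the shares were 67.0% ± 26.1 and 59.0% ± 25.7, higher in pools in 5 of 8 animals, with a difference of 8.01 ± 11.5 points (adjusted p of 0.624 in limma, exact p of 0.563). The median difference over the 132 genes tested was 15.2 points. Of these genes, 23 were called (17.4%), all higher in pools. With 1 animal left out, the count ran from 5 without sham replicate 1 to 57 without RIPC replicate 1. One animal decided the Npr3 call, because RIPC replicate 3 had Npr3 in 0 of 2 pools and 45.5% of its 11 single neurons. Without it the difference was 30.8 points and the adjusted p 0.0356. At the 50% limit only RIPC replicate 3 and naive replicate 3 had at least 2 samples of each type. RIPC replicate 3 had 2 pools and 3 single neurons there, and naive replicate 3 had 11 and 15. The differences were then -38.5 points for Npr3 and -4.85 points for Npr2, and 0 genes were called. So few animals leave little room for a call, and this is not a like comparison with the 8 animals.

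Among pools, the share with Npr2 was close in small and large ones. It was found in 73.1% of 26 pools of 2 to 3 cells (53.9% to 86.3%) and in 67.7% of 62 larger pools (55.4% to 78.05%). Npr3 was found in 61.5% (42.5% to 77.6%) and 59.7% (47.3% to 71.0%) of the same pools. The intervals overlap for both genes. In a pool, fewer cells that carry a transcript and less transcript per cell cannot be told apart.

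Levels in pools and single neurons did not differ past the threshold. For Npr3, 4 animals had at least 2 values of each type, and the level was -4.97 ± 1.73 in pools and -6.60 ± 2.14 in single neurons (SD). The difference of 1.64 ± 0.804 cycles (SE) was positive in 3 of 4 animals (limma adjusted p of 0.523, exact sign-flip p of 0.25). For Npr2 the level was -1.74 ± 0.346 in pools and -1.42 ± 1.14 in single neurons of 7 animals, a difference of -0.32 ± 0.368 cycles (adjusted p of 0.845 in limma). This Npr2 difference was 0.29 cycles when centred on all detected genes and 1.29 in raw Ct, the opposite direction. Of 105 genes tested by level, 0 were called (0%), with 10 at an unadjusted p under 0.05 in limma. The count of called genes was 2 with late values as not detected and 5 in raw Ct.

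In single neurons, the share with Npr3 was larger in each RIPC animal than in each sham animal, but this order rested on late values. Npr3 had a value in 2 of 4, 5 of 10 and 5 of 11 single neurons of RIPC replicates 1, 2 and 3, that is in 50%, 50% and 45.5%. It had a value in 0 of 7, 1 of 3, 0 of 1 and 1 of 5 single neurons of sham replicates 1, 2, 3 and 4. In naive replicates 2 and 3 it had a value in 2 of 3 and 11 of 54. The RIPC animals lay close together and above all sham animals, and the naive animals lay on both sides of them. Of the 12 Npr3 values in RIPC single neurons, 8 were late. With late values counted as not detected, Npr3 was left in 2 of 4, 1 of 10 and 1 of 11 single neurons of RIPC replicates 1 to 3, in 1 of 5 of sham replicate 4 and in 0 of those of the other sham animals. The neuron left in RIPC replicate 2 is the one with a late first run at 23.0 and a second run at 14.6. RIPC replicates 2 and 3 then lay below sham replicate 4, and the means were 23.0% ± 23.4 (SD, n = 3) after RIPC and 5% ± 10 (SD, n = 4, of which 1 animal has 1 neuron) after sham surgery.

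Over animals with at least 2 single neurons, the Npr3 share with late values included was 48.5% ± 2.62 (SD, n = 3) after RIPC, 17.8% ± 16.8 (SD, n = 3) after sham surgery and, in naive animals, 43.5% ± 32.7 (SD, n = 2). The mean after RIPC was 30.7 points above sham and 4.97 points above naive animals, and sham differed from naive by -25.7 points. The last value rested on naive replicate 2, with its 3 neurons, and was -2.59 points without it and -48.9 without naive replicate 3. RIPC minus naive was 28.1 points without naive replicate 2 and -18.2 without naive replicate 3. Median assays per single neuron were 68 after RIPC, 68.5 after sham surgery and 71 in naive animals. Of 122 genes tested by share over these animals, 0 were called (0%) in RIPC against sham, RIPC against naive and sham against naive, with 7, 3 and 5 at an unadjusted p under 0.05 in limma.

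Npr2, the receptor that makes cyclic GMP, had its smallest mean share of single neurons after RIPC. It was detected in 2 of 4, 4 of 10 and 5 of 11 single neurons of RIPC replicates 1 to 3. In sham replicates 1 to 4 it was found in 3 of 7, 3 of 3, 1 of 1 and 2 of 5, and in naive replicates 2 and 3 in 3 of 3 and 29 of 54. The mean share was 45.2% ± 5.01 (SD, n = 3) after RIPC, 61.0% ± 33.8 (SD, n = 3) after sham surgery and, in naive animals, 76.9% ± 32.7 (SD, n = 2). RIPC and sham animals overlapped, and both naive animals lay above all RIPC animals. The difference of RIPC from sham was -15.8 points and from naive -31.7 points, and sham differed from naive by -15.9 points. RIPC minus naive was -8.55 points without naive replicate 2 and -54.8 without naive replicate 3. The shares of 100% rest on 3 neurons in naive replicate 2 and 3 in sham replicate 2. Without sham replicate 2 the difference of RIPC from sham was 3.72 points, the opposite direction.

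**Figure D2:**
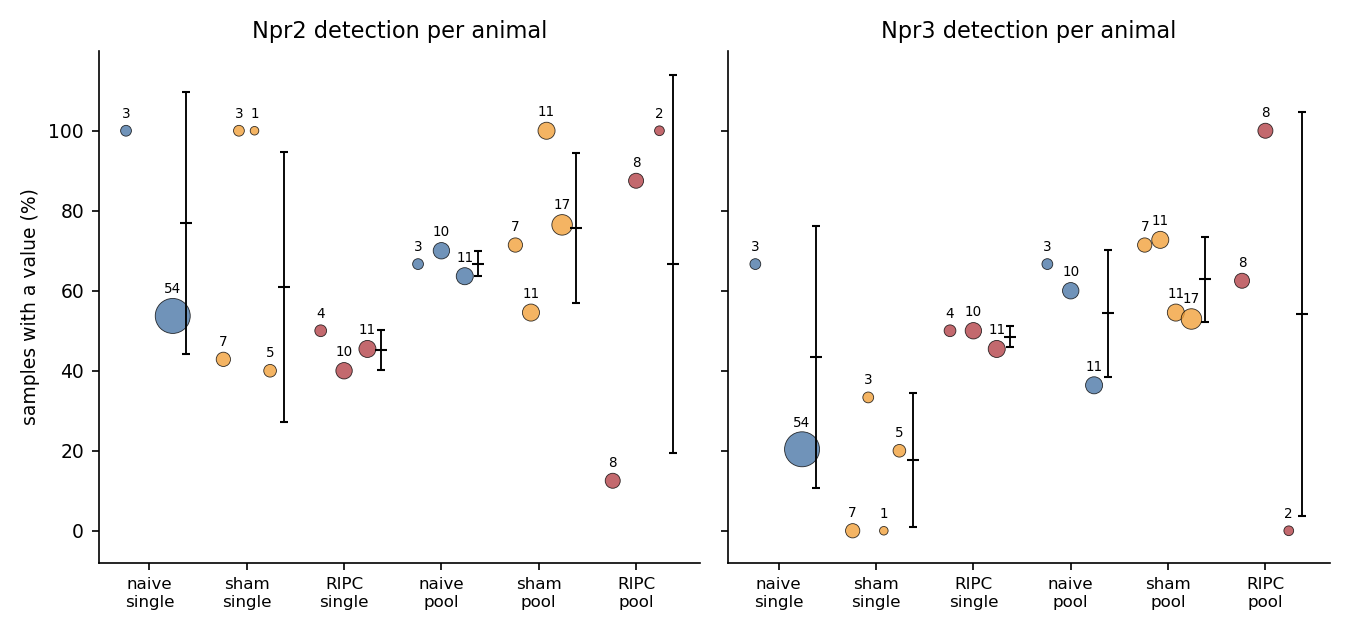
Share of samples with a value for Npr2 (left) and Npr3 (right), in percent, by treatment and sample type; each circle is 1 animal, its area grows with its number of samples, which is printed above it, and the bars are means ± SD over animals with at least 2 samples. In single neurons the 3 RIPC animals lie between 45.5% and 50% for Npr3 with late values included, above all sham animals, while RIPC pools spread from 0% to 100% for Npr3 and from 12.5% to 100% for Npr2.

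Where Npr2 was detected in single neurons, its mean level was lowest after RIPC. The mean level was -2.40, -3.63 and -1.56 in RIPC replicates 1 to 3, -1.22, -1.71 and -0.51 in sham replicates 1, 2 and 4, and -0.05 and -1.26 in naive replicates 2 and 3. RIPC replicate 3 lay above sham replicate 2, so these groups overlap, while all RIPC animals lay below both naive animals. The mean was -2.53 ± 1.04 (SD, n = 3) after RIPC, -1.15 ± 0.603 (SD, n = 3) after sham surgery and -0.66 ± 0.857 (SD, n = 2) in naive animals. RIPC differed from naive by -1.87 cycles and from sham by -1.38 cycles, and sham from naive by -0.49 cycles. RIPC minus sham was -0.77 cycles without RIPC replicate 2, -0.92 with late values as not detected and -0.56 in raw Ct. Of the genes tested by level over these animals, 0 of 59 were called for RIPC against naive (0%), 0 of 83 for RIPC against sham (0%) and 0 of 53 for sham against naive (0%), with 2, 3 and 2 at an unadjusted p under 0.05 in limma. The single late RIPC value of Npr2, a Ct of 23.99, came from RIPC replicate 2.

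The Npr3 level in single neurons could be compared for RIPC and naive animals. It was -3.50, -8.41 and -8.07 in RIPC replicates 1 to 3, and -7.30 and -7.20 in naive replicates 2 and 3. The means were -6.66 ± 2.74 (SD, n = 3) and -7.25 ± 0.068 (SD, n = 2), 0.59 cycles apart. The 2 sham neurons with Npr3 were at -9.58 and -2.02, in different animals. The RIPC animals thus lay on both sides of the naive animals.

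In pools, the level of Npr3 was higher after RIPC in the 2 RIPC animals in which it was detected. Npr3 was found in 5 of 8 pools of RIPC replicate 1, 8 of 8 of replicate 2 and 0 of 2 of replicate 3. It was found in 5 of 7, 8 of 11, 6 of 11 and 9 of 17 pools of sham replicates 1 to 4, and in 2 of 3, 6 of 10 and 4 of 11 pools of naive replicates 1 to 3. The mean share was 54.2% ± 50.5 (SD, n = 3) after RIPC, 62.9% ± 10.6 (SD, n = 4) after sham surgery and, in naive animals, 54.3% ± 15.9 (SD, n = 3). The means lay closer together than the animals of the RIPC group, and the RIPC animals hold both the highest and the lowest share.

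The animal mean level of Npr3 in pools was -3.25 and -4.21 in RIPC replicates 1 and 2. It was -7.31, -6.62, -7.14 and -5.86 in sham replicates 1 to 4, and -7.01, -5.10 and -7.30 in naive replicates 1 to 3. Both RIPC animals lay above all others. From the highest, the order was RIPC at -3.73 ± 0.681 (SD, n = 2), naive at -6.47 ± 1.195 (SD, n = 3) and sham at -6.73 ± 0.650 (SD, n = 4). The RIPC mean was 3.00 cycles above sham and 2.73 above naive, and the means of sham and naive differed by -0.26 cycles, less than the spread between animals. Within RIPC replicate 1 the 5 pool levels had an SD of 4.70 cycles, and within replicate 2 the 8 levels had an SD of 3.19 cycles, so each animal mean is wide.

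The sample limit changed the Npr3 level in pools. At 50% of the assays, RIPC replicate 1 kept 1 pool, at a level of -10.4 with a late Ct, and RIPC replicate 2 kept 6 pools with a mean of -3.82. The RIPC mean was then 0.02 cycles above sham and -1.14 cycles from naive. Without RIPC replicate 1, at the 25% limit, it was 2.47 cycles above sham. Late values were fewer in RIPC pools, with 2 of 13 (15.4%, 4.33% to 42.2%), than in sham pools with 10 of 28 (35.7%, 20.7% to 54.2%) and naive pools with 7 of 12 (58.3%, 32.0% to 80.7%). With late values counted as not detected, the RIPC level was 2.42 cycles above sham and 2.79 above naive.

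Npr2 in pools turned on RIPC replicate 1. It had a value in 1 of its 8 pools, against 7 of 8 in RIPC replicate 2 and 2 of 2 in replicate 3, and the same animal's pools held Npr3 in 5 of 8. Npr2 was found in 5 of 7, 6 of 11, 11 of 11 and 13 of 17 pools of sham replicates 1 to 4 and in 2 of 3, 7 of 10 and 7 of 11 pools of naive replicates 1 to 3. Its mean share was 66.7% ± 47.3 (SD, n = 3) after RIPC, 75.6% ± 18.8 (SD, n = 4) after sham surgery and, in naive animals, 66.8% ± 3.18 (SD, n = 3). The difference of RIPC from sham was -8.94 points, and without RIPC replicate 1 it was 18.1 points. The low share of that animal came with its low median of 56.5 assays, and its 1 pool with Npr2 had 135. In naive replicate 1, at a median of 48, Npr2 was found in the pools with 47 and 120 assays and not in the pool with 48. The part of yield was not tested. Where detected, Npr2 was at -2.12 ± 0.570 after RIPC, -1.68 ± 0.490 after sham surgery and -1.65 ± 0.355 in naive animals (SD, n = 3, 4 and 3), so the group means lay within 1 pooled SD of each other. RIPC minus naive was -0.80 cycles without RIPC replicate 3, -0.23 without RIPC replicate 1 and 0.98 in raw Ct, the opposite direction.

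Detection of the pair followed the yield of a sample unequally. Across the 186 samples, detection of Npr2 correlated with the number of assays at r = 0.47, rank 25 of 164 genes, and detection of Npr3 at r = 0.29, rank 102, where the median gene was at 0.33. Among pools with 25% to 50% of the assays, Npr2 was found in 32.0% of 25 pools and Npr3 in 56.0%. Among pools with more, Npr2 was found in 84.1% of 63 pools and Npr3 in 61.9%. In single neurons the shares rose for both, from 47.4% to 72.7% for Npr2 and from 19.7% to 54.5% for Npr3, over 76 and 22 neurons. These are descriptions, since the count of assays includes the gene itself and samples share animals.

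The split by Gfap, the astrocyte marker, ran along with yield. Npr2 had a value in 83.8% of 68 pools with Gfap and in 20% of 20 pools without it, while Npr3 had one in 57.4% and 70%. The median number of assays was 101.5 and 56.5 in these pools. In single neurons Npr2 had a value in 55.7% of 79 with Gfap and 42.1% of 19 without, and Npr3 in 31.6% and 10.5%, at medians of 73 and 61 assays. Detection of Npr2 and of Npr3 thus lay in opposite order in pools, and the part of glial RNA or of yield in these values was not tested.

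Over all samples, Npr2 and Npr3 were found together about as often as the product of their shares gives. Both had a value in 53 of 186 samples (28.5%, 22.5% to 35.4%), where the product of the shares gives 48.6. The share with both was 15.6% with late values as not detected and 47.1% at the 50% limit. Npr2 alone was found in 60 samples, Npr3 alone in 27 and neither in 46. The phi coefficient, a correlation between calls of detection, was 0.10 over all samples, 0.17 in single neurons and -0.09 in pools. By treatment it ran from 0.06 in naive to 0.44 in RIPC single neurons and from -0.35 in naive to 0.19 in RIPC pools. In single neurons, both were found in 18 of 98, against 14.3 from the product, and in pools in 35 of 88, against 36.7.

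By treatment, both were found in 8 of 25 single neurons after RIPC (32.0%, 17.2% to 51.6%), 2 of 16 after sham surgery (12.5%, 3.50% to 36.0%) and 8 of 57 in naive animals (14.0%, 7.29% to 25.3%). Of single neurons with Npr2, 72.7% of 11 had Npr3 after RIPC, 22.2% of 9 after sham surgery and 25% of 32 in naive animals. Npr3 was late in 6 of the 8 RIPC neurons with both. Of the naive neurons with both, 1 in naive replicate 3 had Npr2 in its second run only and Npr3 in its first run only. Neither of its values was late. With late values counted as not detected, both were left in 2 of 25 RIPC, 1 of 16 sham and 3 of 57 naive single neurons, and Npr3 in 2 of 10, 1 of 9 and 3 of 31 single neurons with Npr2, so that the treatments lay close together. In pools both were found in 44.4% of 18 after RIPC, 45.7% of 46 after sham surgery and 25% of 24 in naive animals. These intervals count neurons and not animals, and 54 of the 57 naive single neurons came from 1 animal, so they do not compare the treatments. Samples with neither had the lowest yield, with a median of 61 assays in single neurons and 62 in pools, and samples with both the highest, with 80.5 and 105.

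**Figure D3:**
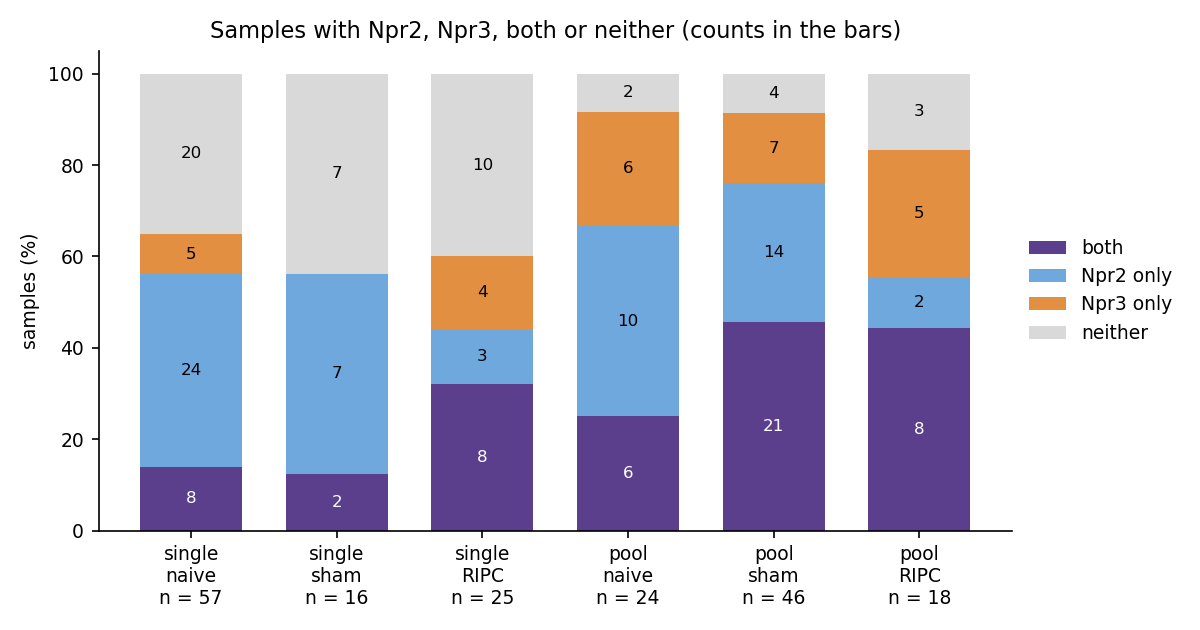
Samples with both genes, Npr2 only, Npr3 only or neither, as a percent of the samples kept, by sample type and treatment, with the number of samples in each bar. Both genes were found in 8 of 25 RIPC single neurons against 2 of 16 sham and 8 of 57 naive ones, and Npr3 was late in 6 of those 8 RIPC neurons, 1 of 2 sham and 5 of 8 naive neurons. Neither gene was found in 37 of 98 single neurons and in 9 of 88 pools.

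In samples with both, the Ct of Npr3 was later than that of Npr2 in nearly all. In the 18 single neurons the difference in Ct, Npr3 minus Npr2, ran from -0.55 to 10.2 cycles with a median of 6.68, and it was below 0 in 1. In the 35 pools it ran from -0.31 to 9.64 cycles with a median of 4.83, and it was below 0 in 3. By treatment, the median in pools was 2.58 cycles in 8 RIPC pools, 5.53 in 21 sham pools and 2.98 in 6 naive pools. Of the 8 RIPC pools, 7 came from RIPC replicate 2, so this value is mostly that of 1 animal. In single neurons it was 5.42 cycles in 8 RIPC neurons and 6.69 in 8 naive neurons, and the 2 sham neurons were at 0.20 and 7.31 cycles. Over the 53 samples with both, the levels correlated at r = 0.32 (Spearman's rho = 0.31), over samples that share animals and reference genes.

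**Figure D4:**
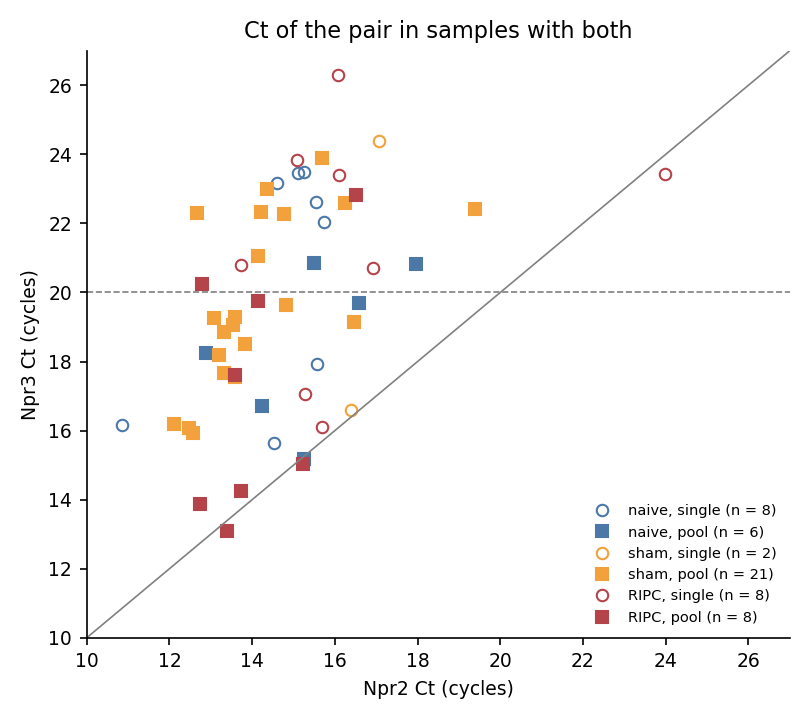
Ct of Npr3 against Ct of Npr2, in cycles, in the 53 samples with both; open circles are single neurons, filled squares are pools, colors are treatments, the solid line marks equal Ct and the dashed line a Npr3 Ct of 20. All but 4 samples lie above the line of equal Ct, and the Npr3 Ct varies over more cycles than the Npr2 Ct.

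For neither receptor did the left and right DMV differ past the threshold. Npr2 was found in 61 of 99 left samples (61.6%) and 52 of 87 right samples (59.8%), and Npr3 in 44 (44.4%) and 36 (41.4%). Over 9 animals with at least 2 samples on each side, the Npr2 share was 60.5% ± 19.3 (SD) in left and 65.5% ± 26.0 in right samples. The difference was -5.05 ± 6.62 points (SE), positive in 4 animals and negative in 4 (limma adjusted p of 0.979, exact sign-flip p of 0.508). It turned to 9.27 points in single neurons alone and 6.96 with no limit on assays, and was -0.32 without naive replicate 2. For Npr3 the shares were 51.1% ± 19.8 and 47.8% ± 20.1, with a difference of 3.34 ± 6.73 points, negative in 6 of 9 animals (adjusted p of 0.979 in limma, exact p of 0.645). Of 132 genes tested, 0 were called (0%), with 6 at an unadjusted p under 0.05 in limma. By level, the differences were 0.23 ± 0.245 cycles for Npr2 and -0.31 ± 0.675 cycles for Npr3 over 8 animals each, both at a limma adjusted p of 0.930, and 0 of 123 genes were called (0%), with 4 at an unadjusted p under 0.05. Late Npr3 values were 20 of 44 on the left and 17 of 36 on the right.

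A dependence of the Npr3 side difference on treatment did not pass the test. Left minus right was -16.7, -16.7 and -9.52 points in RIPC replicates 1 to 3 and -9.52 and -3.79 points in naive replicates 2 and 3. In sham replicates 1 to 4 it was -4.17, 42.9, 37.5 and 10.0 points. All RIPC and naive animals thus had more Npr3 on the right, and 3 of 4 sham animals more on the left. The moderated F test of this dependence gave F of 3.29 with a p of 0.0505 before and 0.997 after adjustment in limma. Under other settings F ran from 0.877 with no limit on assays to 5.28 with another gene filter, and it was 1.72 without sham replicate 2 and 4.67 without sham replicate 1. For Npr2 the p was 0.408 before adjustment. Of 132 genes, 0 were called (0%), with 3 at an unadjusted p under 0.05, among which was Nppc, the gene of the C-type peptide (p of 0.0144 before and 0.997 after adjustment in limma).

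**Figure D5:**
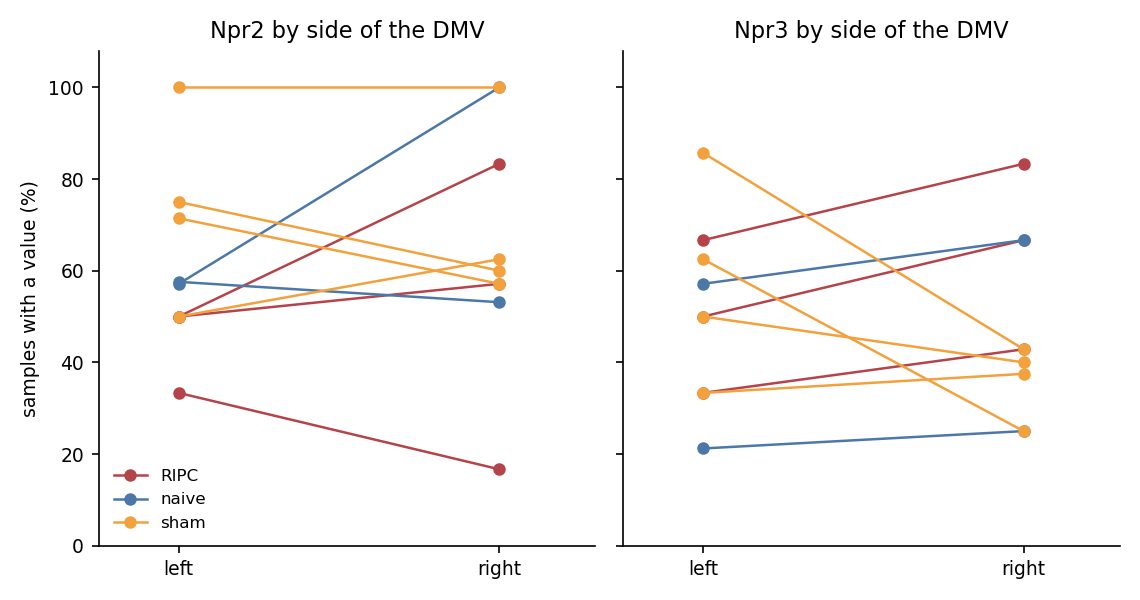
Share of samples with a value on the left and right DMV, in percent, for Npr2 (left panel) and Npr3 (right panel); each line joins the sides of 1 of the 9 animals, colored by treatment. For Npr3 all RIPC and naive lines rise to the right, and 3 of 4 sham lines fall.

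The pair was set beside the other natriuretic genes, from a list of peptides, receptors and enzymes of cyclic GMP of which 8 genes were in the table. Npr1, the receptor of the atrial peptide, was found in 13 of 186 samples (6.99%), 8 of them single neurons, and none of its values was late. Nppa was found in 70 samples (37.6%), Nppc in 40 (21.5%) and Nppb in 3 (1.61%). Nos3 and Nos2, enzymes of nitric oxide synthesis, were found in 37 and 5 samples. Of 5 list genes tested by share (Npr2, Npr3, Nppa, Nppc and Nos3), 0 were called between sides or sample types, and 2 of them, Nppa and Nppc, had an unadjusted p under 0.05 in pools against single neurons. Over all genes of that comparison, 46 of 132 had such a p and 23 were called. The median difference of the 5 list genes there, pools minus single neurons, was 20.5 points, beside 15.2 points over all 132 genes. The smallest adjusted p among the 5 list genes was 0.0659 in limma, for Nppc in pools against single neurons. Its share was 33.1% ± 20.04 in pools and 10.3% ± 12.6 in single neurons (SD) of 8 animals.

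Npr3 was found in a larger share of the single neurons with Nppa, the gene of a peptide that it clears, than of those without. Npr3 was detected in 15 of 28 single neurons with Nppa (53.6%, 35.8% to 70.5%) and in 12 of 70 without it (17.1%, 10.1% to 27.6%). The share was higher with Nppa in 5 of 5 animals that had at least 2 neurons of each kind, by 53.3 ± 30.3 points (SD). In naive replicate 3 alone it was 6 of 15 against 5 of 39. The Ct of Npr3 was late in 6 of the 15 neurons with Nppa and in 12 of the 12 without it, and the median level was -4.41 and -8.005. Median assays were 74 in neurons with Nppa and 68.5 in those without, and the part of yield was not tested. The share with Npr3 was as large in single neurons with other genes of the list that do not encode its ligands, with 57.1% of 14 for Nos3 and 62.5% of 8 for Npr1. In pools Npr3 had a value in 66.7% of 42 with Nppa, beside 60.2% of all 88. This split was chosen after the values were seen. Npr2 was found in 53.6% of single neurons with Nppa and 52.9% of those without. Within animals its share differed by 21.9 ± 45.4 points (SD), higher with Nppa in 3 of 5. For Nppc, the main ligand of Npr2, Npr2 was found in 6 of 11 single neurons with it (54.5%) and 52.9% of 87 without. Npr3, which binds this peptide too, was found in 4 of the 11 (36.4%) and 26.4% of the 87, a difference of 6.25 ± 65.0 points (SD) within 3 animals.

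Of 163 genes ranked by phi with each receptor over the 186 samples, the 3 most like Npr2 were Cacna1d, a calcium channel gene (0.42), Hrh3, a histamine receptor gene (0.41), and Rgs2, a regulator of G protein signaling (0.39). For Npr3 they were IL6r, the interleukin 6 receptor gene (0.30), Nppa (0.29) and Htr6, a serotonin receptor gene (0.29). Npr3 was at rank 105 for Npr2, and Npr2 at rank 80 for Npr3. Detection of all these genes also rose with the number of assays, with r from 0.28 for IL6r to 0.64 for Hrh3.

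Single neurons were also split by genes of transmitter synthesis and activity. Npr2 was found in 55.9% of 68 neurons with Chat and 46.7% of 30 without, in 56.9% of 51 with Gad1 or Gad2, enzymes of GABA synthesis, and 48.9% of 47 without, and in 61.8% of 55 with Th, an enzyme of catecholamine synthesis, and 41.9% of 43 without. Npr3 varied less, with 27.9% and 26.7% for Chat, 29.4% and 25.5% for Gad1 or Gad2, and 29.1% and 25.6% for Th. The 95% intervals of each split overlapped, and these counts pool neurons of all animals. Within animals that had at least 2 neurons of each kind, the order was not always the same. For Npr2 the share with minus without was 0.749 ± 27.98 points (SD) for Chat, higher with it in 3 of 5 animals, -15.0 ± 33.0 points for Gad1 or Gad2, higher in 1 of 4, and 27.7 ± 37.96 points for Th, higher in 5 of 6. For Npr3 it was -13.7 ± 24.2 points for Chat, higher in 1 of 5, -8.42 ± 29.6 points for Gad1 or Gad2, higher in 1 of 4, and 10.4 ± 53.6 points for Th, higher in 3 of 6. Of 14 neurons with Fos, an activity gene, 78.6% had Npr2 and 50% had Npr3, against 48.8% and 23.8% of 84 without, and both shares were higher with Fos in 3 of 3 animals. Neurons with Fos also had more assays with a value, with a median of 96.5 against 68, and the part of yield in this split was not tested.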

How the data were processed

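Neurons of the DMV of naive, sham and RIPC rats were measured by microfluidic RT-qPCR after reverse transcription and preamplification. The authors exported raw Ct values, here entered as a score because lower values mean more transcript; the deposited scores are not normalized, and an empty cell is below the limit of detection. The table held 218 columns and 168 assays; groups, animals, sides and cell numbers came from the labels. Samples were spread over several chips, but which chip held which sample is unknown here, and chip was not tested as a batch. The methods give 3 animals per operated group, whereas the labels give 4 sham animals, and the labels were followed.

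Duplicate assays of a gene were averaged. For 5 neurons with a second run, the mean Ct was used, and a value in one run sufficed for detection. Samples needed a value in 25% of the assays, which keeps 190 columns, the total of the study's methods; the wording there of 50% kept 85 samples and was an alternative. Level was the median Ct of the 35 most often detected genes minus the Ct. Late means a Ct above 20.

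Each animal gave 1 value per gene: the share of samples with a value, or the mean level over at least 2 values (at least 1 in pools by treatment). Genes with a value in 10% to 95% of the samples were tested by share, and a gene needed 3 animals for a paired level. Sides and sample types were compared as differences within animals, and treatments of single neurons as 3 groups, over all genes, with two-sided tests in limma (version 3.58.1, R 4.3.3), Benjamini-Hochberg adjustment over all genes and a threshold of 0.05. The pair was also tested by exact sign flips over animals for sides and sample types. A test of the pair between treatments had been planned for single neurons and is not given, because the study had looked at these neurons too when it singled out the pair. Some of the fits had first been run on simulated data of this layout. These were sides by share and level, the side difference by treatment, and treatments of single neurons by share. Pools against single neurons and treatments by level were not tested in this way, nor was the block for the animal number. Intervals are Wilson intervals at 95%.

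Members and lists were chosen with earlier results of these data known. Named genes were the pair, the natriuretic list, the 3 genes with the highest phi for each receptor, and the genes used to split neurons; genes ranked above Npr3 by late values and the marker genes were named after their values were seen. Alternatives covered the sample limit, late values, second runs, a neuron whose title begins like those of another animal, centring, the scale of the share, gene filters, sample type, each animal left out in turn, and a block for the animal number.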

Additional observations from a re-analysis of the deposited data

Results flagged for a closer look

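Both receptors had values in samples that the 25% limit kept out of the report. Of the 27 samples with a value in fewer than 25% of the assays, Npr2 was detected in 22.2% (6 samples, Wilson 95% interval 10.6% to 40.8%) and Npr3 in 29.6% (8 samples, 15.9% to 48.5%). A count of 0 would allow a share of up to 11.1% (3 of 27), which lies inside the interval of Npr2 and below that of Npr3. None of the Npr2 values and 5 of the Npr3 values there were late. These samples enter only the alternative with no limit on assays. No animal stood apart from its group in the 13 sets of animal values of the pair that had enough animals to examine.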

How the results depend on the processing

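Of the values under settings other than leaving out an animal, 292 kept their direction and their side of the threshold or, for values with no test, moved less than the spread between animals. With the 50% limit, Npr3 in pools was 0.0203 cycles above sham and -1.14 cycles from naive after RIPC. The share with Npr3 was then 32.9 points higher in sham than in naive pools, and 47.1% of samples had both genes. At that limit pools against single neurons rested on RIPC replicate 3 and naive replicate 3 alone. It gave 0 called genes, -4.85 points for Npr2 and -38.5 points for Npr3. With late values as not detected, 15.6% of samples had both genes, and 2 genes were called by level between pools and single neurons, where raw Ct called 5. Raw Ct put Npr2 in pools 0.98 cycles above naive and 0.32 above sham after RIPC, 0.66 above naive after sham surgery, and 1.29 above single neurons; centring on all detected genes gave 0.13 for RIPC against naive pools and 0.29 for pools against single neurons. On the arcsine scale the Npr2 share in pools was 0.0905 radians above naive after RIPC. Left minus right was 9.27 points for Npr2 in single neurons alone and 6.96 points with no limit on assays, and the Npr3 level was 0.0292 cycles without the neuron whose title does not match its animal. Within the spread between animals, the sign of other pool values turned too. RIPC minus sham was 8.93 points for Npr2 at the 50% limit and 7.94 points for Npr3 with late values as not detected. RIPC minus naive was 30.7, 21.7 and 6.31 points for Npr3 at the 50% limit, with late values as not detected and with no limit on assays, and 21.6 and 5.43 points for Npr2 at the 50% limit and with no limit. Sham minus naive was 0.37 and 0.45 cycles for Npr3 with late values as not detected and in raw Ct, and 0.27 cycles for Npr2 centred on all detected genes. With late values as not detected, Npr3 in single neurons fell out of the filter on detection and was not fitted. The cause of these shifts was not tested.

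Leaving out 1 animal at a time, the count of genes called between pools and single neurons by share ran from 5 (without sham replicate 1) to 57 (without RIPC replicate 1), and the Npr3 difference from 14.1 (without sham replicate 1) to 30.8 points (without RIPC replicate 3). Left minus right ran from -0.94 to 0.11 cycles and from -1.60 to 5.84 points for Npr3. In single neurons, the Npr3 level of RIPC minus naive ran from -0.93 to 1.51 cycles and the share from -18.2 (without naive replicate 3) to 28.1 points (without naive replicate 2). For Npr2 the share of RIPC minus sham ran from -26.3 to 3.72 points and of sham minus naive from -39.0 to 7.25 points. The Npr2 level there ran from -1.92 to -0.77 cycles for RIPC minus sham and from -0.84 to -0.12 cycles (without sham replicate 2) for sham minus naive, and RIPC minus naive was -0.86 cycles in raw Ct. Without naive replicate 3, which left 1 naive animal that is assumed to vary like the other groups, 1 gene was called for RIPC against naive and 3 for sham against naive, and 0 in the lowest case. In pools, the share of RIPC minus sham ran from -25.6 to 18.1 points for Npr2 and from -31.7 to 18.3 points for Npr3, that of RIPC minus naive from -16.8 to 26.98 and from -23.1 to 26.9 points, and the Npr3 level of RIPC minus sham from 2.47 to 3.44 cycles and of RIPC minus naive from 2.19 to 3.43 cycles. Sham minus naive ran from -0.25 to 0.13 cycles for Npr2 and from -0.71 to 0.42 cycles and -0.423 to 14.7 points for Npr3. With late values included, the Npr3 share in single neurons was 21.8 to 38.5 points above sham after RIPC.

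Whether animal numbers paired the groups could not be decided. Same-numbered animals correlated at -0.18 to 0.23 over 5 pairs and others at -0.23 to 0.19. These values are partly redundant, since RIPC replicate 1 correlated at 0.19 with naive replicate 2 and at -0.19 with naive replicate 3. With the number as a block, 2 genes were called by level for RIPC against sham, the Npr3 level of RIPC minus naive was -0.99 cycles, and the Npr3 share of RIPC minus sham was 37.8 points, and no other call changed. The treatments of single neurons at the 50% limit could not be fitted because a group was empty. Few single neurons per animal and the repeatability of a call limit the shares.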
